A study of Homo sapiens with 8 samples.

Results

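The HOX-locus miRNAs are the 7 mature miRNAs of the miR-10, miR-196 and miR-615 hairpins that lie inside the human HOX clusters, and they were chosen by name: hsa-miR-10a-5p, hsa-miR-10a-3p, hsa-miR-10b-5p, hsa-miR-10b-3p, hsa-miR-196a-5p, hsa-miR-196b-5p and hsa-miR-615-3p, written below without the species prefix. All 7 were present in each of the 3 deposited tables, which together held 945 miRNAs. The miRNAs were measured by small RNA sequencing in H1299, an established p53-null line of human lung carcinoma (non-small cell) taken from a lymph node. EV cells carry an empty vector and came from another laboratory, and R273H cells stably express the p53 mutant R273H from a pCMV vector and were grown from colonies that resisted G418. Both lines were left untreated or were treated for 24 h with etoposide, a drug that traps topoisomerase II on broken DNA. Its dose is 10 µM in one label and 10 mM in another. Each of the 4 groups has 2 libraries. The presence of the mutant protein cannot be checked in small RNA data, and the study shows it in the R273H line by immunoblot. The study also reports that profiling of short DNA repeats found the lines to be isogenic. A difference due to R273H cannot be told apart from one due to the separate origin or the colonies of the lines.

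HOX genes encode transcription factors that set position along the body axis, and they are arranged in 4 clusters. The miR-10 and miR-196 genes sit between them and are transcribed in the same direction as their neighbours. Each hairpin gives a 5p and a 3p strand, of which usually one is kept by the Argonaute protein while the other is degraded, and bases 2 to 8 of the kept strand, the seed, pair with target mRNAs. miR-196 is known for cleavage of HOXB8 mRNA, and miR-10b for its repression of HOXD10 in metastatic breast cancer cells. miR-615 lies within the HOXC cluster and is less studied.

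The mature sequences are shown because the seeds decide which of these miRNAs can share targets. Of the 7 miRNAs, 6 matched an entry of the RefSeq table (GRCh38.p14), and they are written 5′ to 3′ with the seed in capitals.
miR-10a-5p (chr17:48579904-48579926, minus strand): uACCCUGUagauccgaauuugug
miR-10a-3p (chr17:48579864-48579885, minus strand): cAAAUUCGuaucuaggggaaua
miR-10b-3p (chr2:176150368-176150389, plus strand): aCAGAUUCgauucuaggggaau
miR-196a-5p (chr12:53991762-53991783, plus strand): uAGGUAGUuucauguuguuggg
miR-196b-5p (chr7:27169528-27169549, minus strand): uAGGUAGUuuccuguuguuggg
miR-615-3p (chr12:54034010-54034031, plus strand): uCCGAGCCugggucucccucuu
miR-10b-5p was not in the RefSeq table.

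miR-196a-5p and miR-196b-5p shared the seed AGGUAGU, which no other mature human miRNA of the table carried. They differed by the substitution A12C, counted from the 5′ end with the base of miR-196a-5p first. The seeds of miR-10a-3p, miR-10b-3p and miR-615-3p were each found in no other miRNA of the table. Whether miR-10a-5p and miR-10b-5p share a seed could not be read here, since the RefSeq table lacks miR-10b-5p. The 3p strands of miR-10a and miR-10b had 11 bases in a row in common, shown here in capitals, but different seeds.
miR-10a-3p: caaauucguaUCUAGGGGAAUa
miR-10b-3p: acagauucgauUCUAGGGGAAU

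The relatives of miR-10 outside the HOX clusters are miR-99a, miR-99b and miR-100. miR-10a-5p shared a run of 11 bases with miR-100-5p, placed 1 base later in miR-10a-5p, while their seeds differed. The run is in capitals.
miR-10a-5p: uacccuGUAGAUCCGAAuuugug
miR-100-5p: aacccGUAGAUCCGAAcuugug
The run shared with miR-99a-5p was 10 bases long, and the one with miR-99b-5p 5 bases.

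On GRCh37, the build the reads were aligned to, the 6 hairpin genes fell in all 4 HOX clusters. MIR10A lay on chromosome 17 at 46657200 to 46657309 on the minus strand, in an intron of HOXB3 and 1488 bases from HOXB4. MIR10B held the matching place in the HOXD cluster, on chromosome 2 at 177015031 to 177015140 on the plus strand, in an intron of HOXD3 and 1138 bases from HOXD4. miR-196a-5p comes from 2 genes that the counts do not separate. MIR196A1 was in an intron of HOXB7 on chromosome 17 (46709852 to 46709921, minus strand), and MIR196A2 in an intron of HOXC6 on chromosome 12 (54385522 to 54385631, plus strand), 1459 bases from HOXC10 and 3048 from HOXC9. MIR196B overlapped an annotated exon of HOXA9 on chromosome 7 (27209099 to 27209183, minus strand), 1041 bases from HOXA10. MIR615 lay in introns of HOXC5 and HOXC4 on chromosome 12 (54427734 to 54427829, plus strand). Positions are from GENCODE 44 lifted to GRCh37, and that of MIR10A from a match of the RefSeq hairpin to GRCh37.

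The libraries held between 234545 and 579367 counted reads, of which 213007 to 536991 were on miRNAs. The share of miR-21-5p, the most abundant miRNA, was 30.6% to 44.5%. The HOX-locus miRNAs together took 0.433% and 0.350% in untreated EV, 0.677% and 0.377% in etoposide-treated EV, 0.520% and 0.523% in untreated R273H, and 0.657% and 0.889% in etoposide-treated R273H. The highest and lowest of these shares were 0.889% (95% Wilson interval 0.859 to 0.921) and 0.350% (0.328 to 0.374), and the lines overlapped. Intervals cover counting error only, since PCR copies of a molecule cannot be told apart.

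The 7 miRNAs spanned more than 3 orders of magnitude in reads, and 1 of them made up most of the sum. Levels are given here as CPM, reads scaled to an equal total per library after TMM normalization, which places all 8 libraries on 1 scale. The mature sequences shown are 22 or 23 bases long, so no correction for length was made. How a read that matches more than 1 miRNA was counted is not given in the sources used here.

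miR-10a-5p, the main strand of the HOXB hairpin, took 84.8% to 90.8% of the reads of the 7 miRNAs and ranked between 22 and 35 among the 427 to 579 miRNAs detected in a library. Its level was 4797 and 3872 CPM in untreated EV, 4244 and 4045 in etoposide-treated EV, 6042 and 4940 in untreated R273H, and 5307 and 4476 in etoposide-treated R273H. The mean was 4239 ± 402 in EV and 5191 ± 662 in R273H (mean ± SD of 4 libraries each), and the lines overlapped. Next in order was miR-196a-5p, at 375 ± 96.9 in EV and 371 ± 77.1 in R273H. miR-10b-5p, the main strand of the HOXD hairpin, followed at 134 ± 29.7 and 194 ± 55.5. Within either line, the libraries of these 3 miRNAs did not overlap with each other.

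miR-615-3p and miR-10a-3p were lower and lay next to each other. miR-615-3p had 28.4 ± 12.2 CPM in EV and 74.5 ± 23.0 in R273H. miR-10a-3p, the strand of the miR-10a hairpin that is less often kept, had 16.8 ± 3.23 in EV and 48.9 ± 8.15 in R273H. In either line the ranges of the 2 miRNAs overlapped. Within single libraries miR-615-3p mostly had more reads. The exceptions were untreated EV replicate 2, with 2 against 3, and untreated R273H replicate 1, with 15 of each. The order of the 2 miRNAs was not tested. miR-196b-5p had 5 and 0 reads in untreated EV, 0 in both etoposide-treated EV libraries, 2 and 3 in untreated R273H, and 3 and 8 in etoposide-treated R273H. It differs from the more abundant miR-196a-5p by A12C alone, and whether misread miR-196a-5p reads add to these counts was not tested. miR-10b-3p was at 0 or 1 read in every library.

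**Figure D1:**
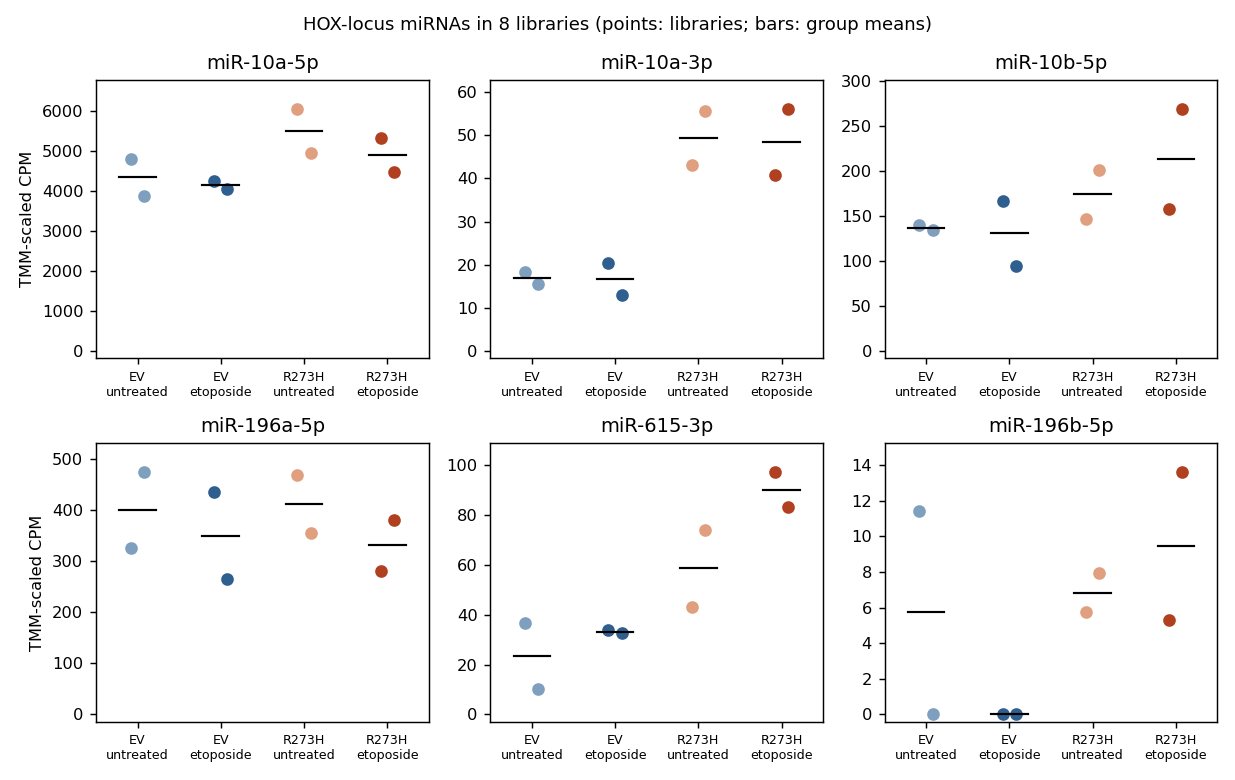
Levels of 6 HOX-locus miRNAs as TMM-scaled CPM (vertical axes, each starting near 0) in the 4 groups, with a point for each library and a bar for the group mean. For miR-10a-3p all 4 R273H libraries (40.7 to 56.1) lie above all 4 EV libraries (13.0 to 20.4), and likewise for miR-615-3p (43.1 to 97.3 against 10.3 to 36.7), while miR-196a-5p shows no step between the lines.

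The first comparison asked which miRNAs differ between untreated R273H and EV cells. Only miR-10a-3p passed the test among the HOX-locus miRNAs, and it was higher in R273H. The values are the deposited normalized counts, reads divided by a size factor per library, and the test was limma on log2(normalized count + 1) for the 304 miRNAs whose mean over the 4 libraries was at least 3. Of the 7 miRNAs, 5 passed this filter. Called means p under 0.05 after Benjamini-Hochberg adjustment over every miRNA in the test. Of the 5, 1 was called, where 20.4% of all miRNAs tested were called in either direction and 10.9% as higher. With the thresholds of the study, an unadjusted p-value under 0.05 and at least a 2-fold difference, 2 of the 5 were called, against 27.3% of all. The study set these thresholds on p-values from DESeq, and here they were set on those from limma. The log2 fold change was above 0 for all 5, with a median of 0.52, and the median over all miRNAs tested was 0.10. The groups did not overlap for 4 of the 5, which were all higher in R273H, as was the case for 34.9% of all miRNAs tested.

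For hsa-miR-10a-3p, the normalized counts were 5.54 and 4.78 in EV and 15.4 and 18.7 in R273H. Both R273H libraries were above both EV libraries. In bulk RNA a change in all cells and a change in the share of cells with the miRNA cannot be told apart. The log2 fold change was 1.55 (standard error, SE, 0.53, 95% interval 0.44 to 2.65, adjusted p = 0.0433, limma), a fold of 2.92 on this scale. It rests on 8 and 3 reads in EV and on 15 and 21 in R273H. The call was lost with edgeR (adjusted p = 0.0904), DESeq2 (0.270), no filter on low counts (0.0861, limma) and a replicate block (0.0897, limma). With the block the calls over all miRNAs went from 62 to 0, so that loss is not particular to miR-10a-3p. The call was also lost whichever of the 4 libraries was left out, which leaves 1 library in a group. The log2 fold change stayed between 1.11 and 1.68 in all of these and in the other settings tried.

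miR-615-3p met the thresholds of the study in limma but was not called after adjustment. The normalized counts of hsa-miR-615-3p were 11.1 and 3.19 in EV and 15.4 and 24.9 in R273H, so the groups did not overlap but the EV libraries differed widely. The log2 fold change was 1.53 (SE 0.58, 95% interval 0.32 to 2.74, adjusted p = 0.0668, limma). Without EV replicate 1 it was 2.30 and called (adjusted p = 0.0255), and without EV replicate 2, the library with 2 reads, it was 0.77 (adjusted p = 0.561).

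The main strands of both miR-10 hairpins moved less. hsa-miR-10a-5p had 1450 and 1199 normalized counts in EV and 2159 and 1657 in R273H, higher in both R273H libraries. Its log2 fold change was 0.52 (SE 0.28, 95% interval -0.06 to 1.10, adjusted p = 0.194, limma). hsa-miR-10b-5p had 42.2 and 41.4 in EV and 52.3 and 67.6 in R273H, again without overlap, with a log2 fold change of 0.50 (SE 0.40, adjusted p = 0.391, limma). Neither passed the test.

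miR-196a-5p, the miRNA of the HOXB and HOXC loci, listed as hsa-miR-196a-5p, had 98.3 and 147 normalized counts in EV and 167 and 119 in R273H. The groups overlapped, and the log2 fold change was 0.23 (SE 0.36, 95% interval -0.52 to 0.99, adjusted p = 0.716, limma). A change of 2-fold in either direction lies outside this interval. The other strand of the hairpin, miR-196a-3p, had a log2 fold change of 0.21 (adjusted p = 0.828, limma). miR-196b-5p and miR-10b-3p were below the filter, and miR-615-5p, the other strand of miR-615, was not listed among the counted miRNAs.

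**Figure D2:**
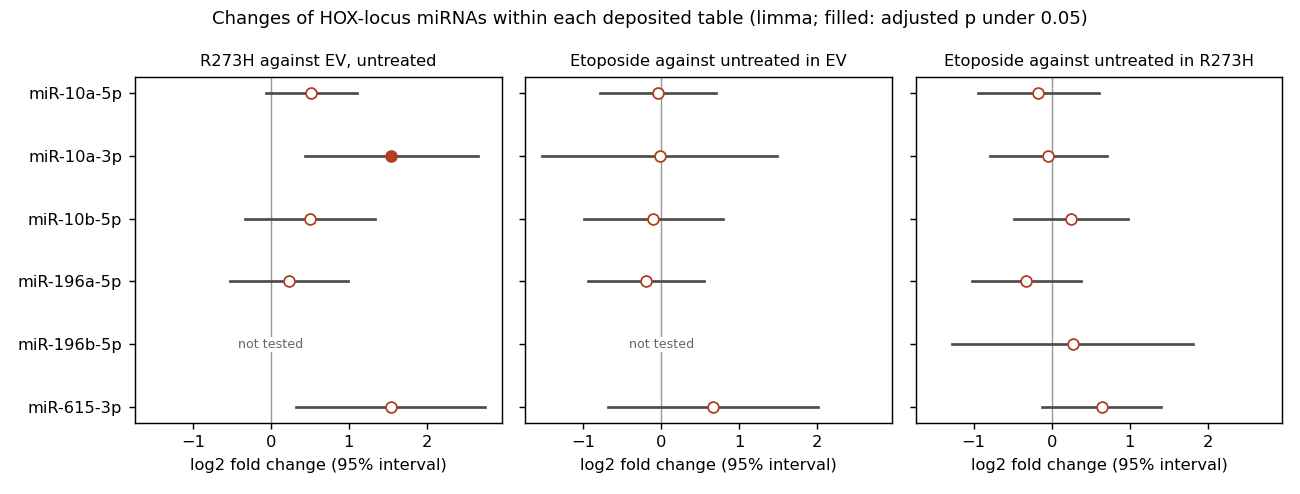
Log2 fold changes (points) with 95% intervals from limma (lines) for 6 HOX-locus miRNAs in R273H against EV untreated, and in etoposide-treated against untreated cells of EV and of R273H. The filled point marks the only adjusted p-value under 0.05, that of miR-10a-3p between the untreated lines (log2 fold change 1.55), and every interval of the etoposide comparisons includes 0.

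Among the relatives outside the HOX clusters, miR-99a-5p was lower in R273H, with 45 and 38.3 normalized counts in EV and 8.21 and 8 in R273H. Its log2 fold change was -2.22 (SE 0.47, adjusted p = 0.00314, limma). miR-100-5p, with 18717 and 11984 in EV and 11875 and 7849 in R273H, had a log2 fold change of -0.63 and did not pass (adjusted p = 0.121, limma). miR-99b-5p was at -0.07 (adjusted p = 0.894, limma). All 3 relatives had a negative value, and all 5 HOX-locus miRNAs tested a positive one, though most of these values did not pass the test. The contrast of signs did not hold between the etoposide-treated lines, whose values are given below.

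The next comparisons asked how the miRNAs respond to etoposide in each line. No HOX-locus miRNA passed the test in either line. In EV, 0 of 5 were called, where 0.676% of the 296 miRNAs tested were called, and in R273H 0 of 6, where 0% of the 341 were called. At an unadjusted p-value under 0.05 in limma, 0 HOX-locus miRNAs passed in either line, against 8.11% of all miRNAs in EV and 9.09% in R273H. The untreated libraries are those of the first comparison, scaled anew in each table.

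miR-10a-5p had 1351 and 1138 normalized counts in untreated EV and 1190 and 1221 after etoposide, a log2 fold change of -0.04 (SE 0.38, 95% interval -0.79 to 0.71, adjusted p = 0.993, limma). In R273H it had 2797 and 2201 untreated and 2473 and 1953 after etoposide, a log2 fold change of -0.17 (SE 0.36, 95% interval -0.95 to 0.60, adjusted p = 0.95, limma). The groups overlapped in both lines, and both intervals exclude a 2-fold change. In EV the SE rests on the spread pooled over all miRNAs tested, and not on that of miR-10a-5p alone.

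miR-10a-3p overlapped as well. It had 5.16 and 4.54 normalized counts in untreated EV against 5.72 and 3.94 after etoposide, and 19.9 and 24.8 against 19.0 and 24.5 in R273H. The log2 fold changes were -0.02 (SE 0.77) and -0.04 (SE 0.35). For miR-10b-5p they were -0.10 (0.45) and 0.25 (0.34), and for miR-196a-5p -0.19 (0.38) and -0.32 (0.32), all with overlapping groups.

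miR-615-3p had the highest log2 fold changes after etoposide in both lines, and neither passed. In EV its normalized counts were 10.3 and 3.03 untreated and 9.54 and 9.84 after etoposide, a log2 fold change of 0.66 (SE 0.69, adjusted p = 0.932, limma). Here the groups overlapped. In R273H they were 19.9 and 33.1 untreated and 45.3 and 36.4 after etoposide, without overlap, a log2 fold change of 0.64 (SE 0.35, 95% interval -0.12 to 1.40, adjusted p = 0.529, limma). In that comparison 20.5% of all miRNAs tested were higher without overlap. Without EV untreated replicate 2 the value in EV was -0.08.

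The etoposide responses of the lines were compared with edgeR (quasi-likelihood) in 1 fit of the recovered reads of 8 libraries. Of the 334 miRNAs tested, 0% were called, and 3.59% had an unadjusted p-value under 0.05. No difference was detectable for the 5 HOX-locus miRNAs tested, with log2 differences of -0.10 for miR-10a-5p, 0.02 for miR-10a-3p, 0.36 for miR-10b-5p, -0.13 for miR-196a-5p and 0.30 for miR-615-3p, and the smallest unadjusted p-value among them was 0.502 (edgeR). The standard errors, from limma on the same libraries, were 0.46 to 0.74.

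The lines were also compared after etoposide, in the same fit. Here miR-615-3p was called and miR-10a-3p was not, at nearly the same log2 fold change. Of the 5 HOX-locus miRNAs tested, 1 was called, where 22.5% of all miRNAs tested were called in either direction and 8.08% as higher. The etoposide-treated libraries did not overlap for 3 of the 5, all higher in R273H, against 28.4% of all miRNAs tested.

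miR-615-3p had 34.0 and 32.6 TMM-scaled CPM in etoposide-treated EV and 97.3 and 83.4 in etoposide-treated R273H. The libraries of each line were close to each other, and the log2 fold change was 1.43 (adjusted p = 0.0322, edgeR). The call was lost when any of the 4 etoposide-treated libraries was left out (adjusted p between 0.0581 and 0.192, edgeR), and with DESeq2 (0.103), limma (0.0595) and a replicate block (0.0781). miR-10a-3p had 20.4 and 13.0 in EV and 40.7 and 56.1 in R273H, a log2 fold change of 1.52 (adjusted p = 0.0640, edgeR). It was called at a mean of at least 10 reads (adjusted p = 0.0416) and with median-of-ratios size factors (0.0469). miR-10b-5p had 167 and 94.5 against 157 and 269 (log2 fold change 0.71, adjusted p = 0.180, edgeR), and the groups overlapped.

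miR-10a-5p had a log2 fold change of 0.24 (adjusted p = 0.693, edgeR) and miR-196a-5p one of -0.08 (adjusted p = 0.905, edgeR). The sign of the latter changed with the filter on low counts. miR-196b-5p was too low for the test. Its 3 and 8 reads in R273H stand against 0 in both EV libraries. With a limit of 3 reads over the EV group, the pooled R273H level relative to all miRNA reads was 2.47 times that limit. This is not a lower bound, since the counting error of the R273H reads is left out. The scale also differs from the TMM-scaled CPM used above. The value rests on the 8 reads of etoposide-treated R273H replicate 2. Without that library, the 3 reads left are at the limit and give no fold. In untreated cells, where the reads were 5 and 0 against 2 and 3, the lines overlapped.

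A comparison of the lines over both treatments was added after the data were seen, and it uses the libraries of the comparisons above. miR-10a-3p and miR-615-3p were higher in R273H in it. The log2 fold change was 1.51 for miR-10a-3p (adjusted p = 0.00391, edgeR) and 1.28 for miR-615-3p (adjusted p = 0.00403, edgeR), with SEs of 0.36 and 0.37 from limma. Every R273H library was above every EV library for both. So 2 of the 5 HOX-locus miRNAs tested were called, and not overlapping, where 36.8% of all miRNAs tested were called in either direction, 15.6% were called as higher and 12% were higher in every R273H library. A share of 2 in 5 is near the first of these, and the list as such was not tested. Both calls held in each of the 6 other settings and with each of the 8 libraries left out in turn, with the highest adjusted p-value, 0.0496 for miR-615-3p, among the latter. The size for miR-615-3p was less stable, with a log2 fold change of 1.95 without untreated EV replicate 1 and of 1.05 to 1.44 without any of the others, while that of miR-10a-3p stayed between 1.37 and 1.68.

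The other 3 did not pass over both treatments. The log2 fold change of miR-10b-5p was 0.53 (adjusted p = 0.120, edgeR), that of miR-10a-5p 0.29 (adjusted p = 0.384, edgeR) and that of miR-196a-5p -0.01 (adjusted p = 0.977, edgeR). The value of miR-196a-5p changed sign with the scaling, and its mean was almost the same in both lines.

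**Figure D3:**
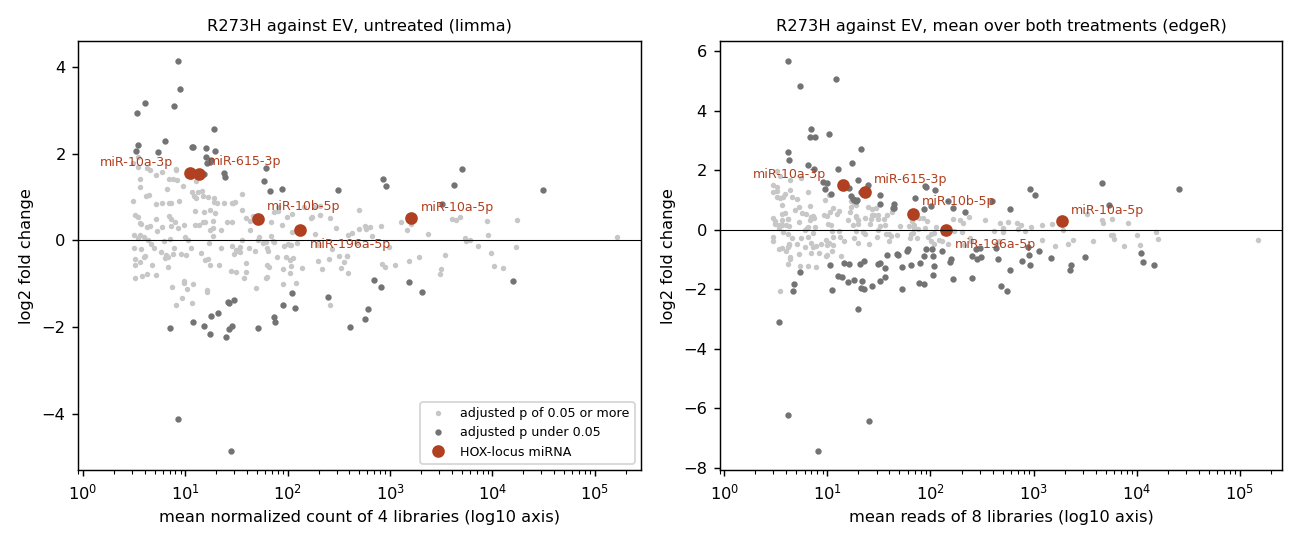
Log2 fold change of R273H against EV (vertical axis) by mean level on a log10 axis for all miRNAs tested, in untreated cells (left, 304 miRNAs, limma) and over both treatments (right, 334 miRNAs, edgeR), with dark points for an adjusted p-value under 0.05 and the 5 HOX-locus miRNAs tested in colour. miR-10a-3p and miR-615-3p lie among called miRNAs of similar level, and miR-615-3p itself is called in the right panel only. miR-10a-5p lies at 0.52 (left) and 0.29 (right), and miR-196a-5p at 0.23 and -0.01.

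The arms of the miR-10a hairpin can be compared within a library, where the size factor has no part. The 3p arm took 0.381% and 0.397% of the miR-10a reads in untreated EV, 0.478% and 0.321% in etoposide-treated EV, 0.708% and 1.11% in untreated R273H, and 0.761% and 1.24% in etoposide-treated R273H. Every R273H library had a higher share than every EV library, and the treatments did not separate. The mean was 0.394% in EV and 0.955% in R273H, a difference of 0.561 percentage points or 2.42-fold. An exact two-sided permutation test over the 4 libraries of each line gave p = 0.0286, the smallest of its 70 arrangements, and 0.114 after adjustment over the 4 ratios compared, which does not pass. A ratio that alone reaches this smallest p cannot pass that adjustment, so the adjusted value does not decide the question. With the exact permutation kept within each treatment, p was 0.0556, the smallest value it can reach, so it could not fall under 0.05. The 3p counts are small, and the Wilson intervals of single libraries overlap between the lines, for example 0.193% to 0.749% in untreated EV replicate 1 and 0.429% to 1.16% in untreated R273H replicate 1.

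**Figure D4:**
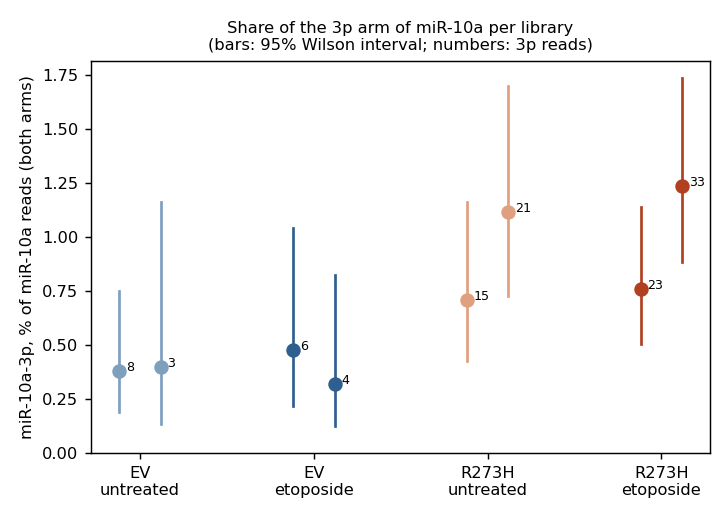
Share of the 3p arm among all miR-10a reads in percent (vertical axis, from 0) for each library of the 4 groups, with 95% Wilson intervals as lines and the number of 3p reads beside each point. The 4 EV libraries lie between 0.321% and 0.478% and the 4 R273H libraries between 0.708% and 1.24%, with overlapping intervals.

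The other 3 ratios overlapped between the lines. miR-10a-5p made up 96.9% of the miR-10a-5p and miR-10b-5p reads in EV and 96.3% in R273H (exact permutation p = 0.457). miR-196a-5p made up 99.1% of the miR-196a-5p and miR-196b-5p reads in EV and 97.8% in R273H (exact permutation p = 0.200). For miR-10b the 5p arm took 98.3% in EV and 99.2% in R273H (exact permutation p = 0.286), on 0 or 1 read of the 3p arm in each library. In both lines the HOXB member of the miR-10 pair and the miR-196a member of the miR-196 pair thus gave over 9 in 10 of the reads of its pair.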

How the data were processed

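Small RNA of 8 libraries, 2 per group, was sequenced on an Ion PGM. The authors trimmed reads (FASTX-Toolkit), aligned them with SHRiMP to miRBase 20 and with Novoalign to GRCh37, and counted them. The deposited signal is the read count divided by a DESeq size factor, separately for each comparison. All values (100%, tolerance 0.02 reads) were whole multiples of 1 read, and the recovered reads of untreated libraries did not differ between tables (0 features). A miRNA listed in no table of a library was taken as 0 reads. The deposited tables of comparisons hold the authors' fold changes and p-values and were not used.

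Tests were limma 3.58.1 on log2(normalized count + 1) with intensity trend per table (mean of at least 3), and edgeR 4.0.16 (quasi-likelihood, TMM, mean of at least 3 reads) for fits of all 8 libraries, in R 4.3.3. P-values were adjusted by Benjamini-Hochberg over all miRNAs tested. DESeq2 1.42.0, other pseudocounts, filters, scalings, a replicate block and leaving out each library were alternatives. For 2 libraries per side, exact permutation reaches no p below 0.333. The study calls the replicates of the untreated lines biological. The labels only number them, and how the replicates were grown is not given in the sources used here, so p-values measure the spread between these libraries. In limma that spread is shared between miRNAs, and for etoposide in EV it was pooled over all miRNAs tested (592 degrees of freedom). The scripts were tested on simulated data. The miRNAs named are the 7 HOX-locus miRNAs, other strands of their hairpins, 3 relatives in sequence, and, for the 2 most abundant members, the 3 miRNAs most correlated with each. Members, lists and tests were chosen with earlier results of these data known. Python 3.11.15, numpy 2.4.6, pandas 2.3.3, scipy 1.17.1 and matplotlib 3.10.9 were used otherwise.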

Additional observations from a re-analysis of the deposited data

How the results depend on the processing

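The count of HOX-locus miRNAs called in untreated R273H against EV, 1 with limma, was 0 with no filter, with edgeR, with DESeq2 and with a replicate block, 2 at a mean of at least 10, and 0 to 1 with a library left out. After etoposide the count, 1 with edgeR, was 2 at a mean of at least 10 and with median-of-ratios size factors, 0 with DESeq2, with limma and with a replicate block, and 0 to 1 with a library left out. Both etoposide counts and that of the difference between lines stayed at 0, and that over both treatments at 2 to 3 (miR-10b-5p was the third, adjusted p = 0.0321 in edgeR without EV etoposide replicate 1). Same-numbered libraries did not deviate together (correlations of -0.03, 0.04 and -0.08), and the main tests did not pair them. These values cannot tell whether same-numbered libraries were grown or prepared together. The block moved the calls over all miRNAs from 62 to 0 in the untreated comparison and left them at 2 and at 0 in those of etoposide.

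Values that changed sign were all far from their thresholds. In the difference of the responses these were miR-10a-5p (0.051 with no filter), miR-10a-3p (-0.0040 with median-of-ratios size factors, -0.011 with DESeq2, -0.019 with limma) and miR-615-3p (-0.042 with limma). For miR-196a-5p it was 0.092 with no filter and 0.0052 with limma after etoposide, and 0.094 with no filter, 0.052 at a mean of at least 10, 0.061 with median-of-ratios size factors, 0.060 with DESeq2 and 0.070 with limma over both treatments.

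With a library left out, miR-196a-5p ranged from -0.055 to 0.52 between untreated lines, -0.39 to 0.33 after etoposide and -0.17 to 0.19 over both treatments. For etoposide in EV the ranges were -0.16 to 0.083 for miR-10a-5p, -0.24 to 0.20 for miR-10a-3p, -0.45 to 0.24 for miR-10b-5p, -0.50 to 0.11 for miR-196a-5p and -0.083 to 1.41 for miR-615-3p. In R273H they were -0.22 to 0.13 for miR-10a-3p, -0.087 to 0.58 for miR-10b-5p and -0.23 to 0.77 for miR-196b-5p. For the difference of the responses they were -0.31 to 0.051 for miR-10a-5p, -0.26 to 0.37 for miR-10a-3p, -0.072 to 0.83 for miR-10b-5p, -0.45 to 0.27 for miR-196a-5p and -1.05 to 0.76 for miR-615-3p. The share of miR-10a-5p in its pair with miR-10b-5p differed between lines by -1.10 to 0.0034 percentage points, the latter without R273H etoposide replicate 2. A group left with 1 library was taken to vary like the others. The cause of these changes was not tested.

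Depth limits the low miRNAs most: miR-615-3p and miR-10a-3p had 2 to 16 reads per EV library. Equal upper quartiles, which change the scaling alone, moved the median of all miRNAs by 0.075 in the untreated comparison and by -0.11 for etoposide in R273H. With edgeR and DESeq2, which change the model as well, the untreated median moved by -0.19 and -0.11.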

Other observations

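The miRNAs whose level followed the 2 most abundant HOX-locus miRNAs most closely were taken from 236 miRNAs with a mean of at least 10 reads, by Pearson's r of log2(level + 1), each level scaled to the miRNA reads of its library, over the 8 libraries. For miR-10a-5p these were miR-652-5p (r = 0.968), miR-30e-3p (0.952) and miR-96-5p (0.95). For miR-196a-5p they were miR-33a-3p (0.959), miR-186-5p (0.925) and miR-195-5p (0.924). All miRNAs come from the same 8 libraries and are scaled to the same totals, so these values are a description.

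The relatives miR-99a-5p and miR-100-5p were lower in etoposide-treated R273H than in etoposide-treated EV cells as well, with log2 fold changes of -1.39 (adjusted p = 0.0417, edgeR) and -1.35 (adjusted p = 0.00870, edgeR). The relative miR-99b-5p was at 0.07 in that comparison (adjusted p = 0.919, edgeR). miR-99a-5p had 99.2 ± 49.0 TMM-scaled CPM over the 4 EV libraries and 23.4 ± 0.489 over the 4 R273H libraries (SD), without overlap.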
